A study of Mus musculus with 16 samples.

Results

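Kidney cortex of mice with Pbrm1 deletion targeted to tubule epithelium was compared with wild-type cortex. The comparison used 8 of the 16 expression arrays of the series, chosen by their titles: 4 Pbrm1 mutant arrays and 4 wild-type arrays. The mutants carried floxed Pbrm1 (Pbrm1 F/F) with Ksp-Cre, in which the promoter of the kidney cadherin gene Cdh16 drives the recombinase in tubule epithelium. Stroma, vessels and blood cells are not targeted. How completely each tubule segment lost the gene was not measured. All mice were 3 months old and ate normal diet, and total RNA of the cortex was hybridized. The labels give the wild type as C57BL/6, with no Cre, and the Pbrm1 mutants as a mixed background of C57BL/6, BALB/c and 129, so that genotype, strain and Cre cannot be told apart in this comparison. The labels give the Vhl mutants (Vhl F/F with Ksp-Cre, 4 arrays) the same mixed background as the Pbrm1 mutants. Strain alleles were not measured, so the 2 mutant groups may still differ in them. The difference between these 2 mutant groups is given beside the main comparison. It contrasts 2 deletions with each other, and both comparisons use the same Pbrm1 mutant arrays. The other 4 arrays are double mutants (Vhl F/F, Pbrm1 F/F with Ksp-Cre), which appear below as levels only.

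Each array carries a description number followed by L or R; the labels explain neither. In wild type and in the Pbrm1 mutants, replicates 1 and 2 share a number, and replicates 3 and 4 share another. In the double mutants, replicates 1, 2 and 3 share 1 number and replicates 2 and 3 also the letter, so that their mean and SD may count 1 sample more than once. Nothing in the labels says whether a number is an animal, and if it is, wild type and Pbrm1 mutants hold only 2 animals each. The p-values then measure only the spread between these arrays, part of which may be technical. Among Pbrm1 mutants, arrays sharing a number differed less from each other than arrays that did not. The SD of the difference was taken over genes with a mean at or above background, the highest lower quartile of an array. It was 0.20 and 0.21 for the Pbrm1 mutant pairs sharing a number and 0.24 for the other pairs, on the log2 scale. In wild type these values were 0.22 and 0.24 against 0.23 to 0.29.

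PBRM1 is a bromodomain protein of the PBAF form of the SWI/SNF complexes, which use ATP to move nucleosomes and so open or close regulatory DNA. The gene is among the most often mutated in clear cell renal cell carcinoma, a tumour of the tubule epithelium. The cortex consists mainly of proximal tubule, which reabsorbs solutes, breaks down filtered peptides and amino acids, and makes glucose; the distal segments and collecting duct adjust salt, acid and water. A tissue sample mixes all of these cells, and fewer cells of a type cannot be told apart from less RNA per cell.

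Of 22180 genes, 895 (4.04%) were called at an adjusted p under 0.05 in limma's moderated test. Called genes were higher in Pbrm1 mutants in 352 cases (1.59% of all genes) and lower in 543 (2.45%). Counts of list and family members below are to be read beside these shares. Most changes were small: the median size of a called change was 0.45 on the log2 scale, and 235 genes (1.06%) were called and changed at least 1.5-fold, 104 up and 131 down. At least 2-fold changes numbered 30 up and 29 down. The values of the 2 groups did not overlap for 2630 genes (11.9%), among them 856 of the called ones. Over all genes the median log2 fold change was -0.01. The same fit called 1655 genes (7.46%) between Pbrm1 and Vhl mutants. With 1 value per description number the count of 895 fell to 274, and it was 349 without Pbrm1 mutant replicates 3 and 4 and 512 without wild-type replicates 1 and 2.

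**Figure D1:**
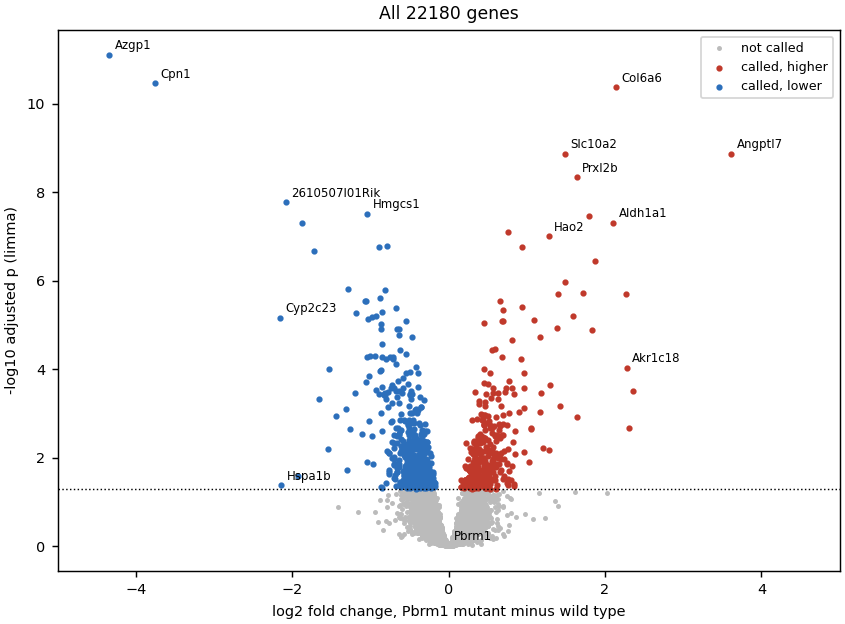
Each point is a gene, with its log2 fold change (Pbrm1 mutant minus wild type) on the x axis and -log10 of limma's adjusted p on the y axis; the dotted line is the 0.05 threshold. Azgp1 and Cpn1 lie far to the left at -4.34 and -3.75, Angptl7 far to the right at 3.61, and Pbrm1 at the bottom centre.

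The deleted gene itself did not separate the groups. Its probe set read 8.26, 8.21, 8.17 and 8.14 in wild-type replicates 1 to 4 and 8.17, 8.19, 8.24 and 8.15 in the mutants (log2 fold change -0.01 ± 0.07 SE, adjusted p = 0.978). Pbrm1 has 1 probe set here, its position relative to the deleted exons is not known from the sources used, and cells without Cre contribute to it, so the reading checks nothing about the labels. The tissue markers matched the label: the proximal tubule phosphate transporter Slc34a1 lay between 12.79 and 12.98 on all 8 arrays, the uptake receptor Lrp2 between 12.26 and 12.35, and uromodulin, Umod, of the thick ascending limb between 11.85 and 12.05. All arrays read alike for sex-linked genes, with Xist between 3.00 and 3.33 and the Y-linked Kdm5d between 6.06 and 6.61; no sex chromosome gene of 8 measured was called.

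Azgp1 and Cpn1, which encode secreted proteins, showed the deepest falls. Azgp1 encodes zinc-alpha-2-glycoprotein, known for promoting lipid breakdown in fat. It measured 9.58, 9.53, 9.20 and 9.07 (log2) in wild-type replicates 1 to 4 and 4.40, 5.24, 5.28 and 5.09 in the Pbrm1 mutants. The groups lay far apart, with Pbrm1 mutant replicate 1 the lowest (log2 fold change -4.34, 95% confidence interval -4.72 to -3.97, adjusted p = 7.79e-12, a 20.3-fold difference). Cpn1, the active subunit of the plasma peptidase that removes C-terminal arginine from kinins and complement fragments, measured 8.98, 8.84, 9.01 and 9.06 in wild type. In the mutants it measured 5.66 and 5.58 in replicates 1 and 2 and 4.79 and 4.86 in replicates 3 and 4. No mutant array came near the wild-type range, although the 2 description numbers of the mutants differed (log2 fold change -3.75, interval -4.11 to -3.39, adjusted p = 3.45e-11, 13.5-fold).

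Angptl7, an angiopoietin-like gene best known from the eye's outflow tissue, showed the steepest rise. It measured 6.94, 7.12, 7.05 and 7.12 in wild type and 10.77, 10.79, 10.50 and 10.61 in the Pbrm1 mutants. All mutant arrays stood more than 3 log2 units above all wild-type arrays (log2 fold change 3.61, interval 3.17 to 4.05, adjusted p = 1.34e-09, 12.2-fold). Of the 4 angiopoietin-like genes measured, Angptl7 was the only one called, and the family median change was 0.03. Akr1c18, an aldo-keto reductase of progesterone metabolism, measured 7.72, 8.01, 8.4 and 8.39 in wild type and 10.17, 10.29, 10.50 and 10.69 in the mutants (log2 fold change 2.28 ± 0.30 SE, adjusted p = 9.25e-05). Its groups were separate by over 1 log2 unit, and it was the only called gene of 14 aldo-keto reductases.

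The bases before the starts of these 4 genes are shown because these are the 2 deepest falls, the steepest rise and a steroid enzyme that also stands out below; they come from RefSeq (GRCm38.p6), end at the base before the annotated start, and run 5′ to 3′ on the gene's strand. Capitals mark matches, on either strand, to GTTAAT, the core letters of a site for the tubule factor HNF1; the letters TATAAA of a TATA box and CAAAGTCCA of an HNF4 site were also searched. Among 27025 promoters cut the same way, 6.52% hold GTTAAT, 13.0% TATAAA and 0.381% CAAAGTCCA. A match is a description of letters and no measure of binding. The windows are chr5:137981271-137981520 (plus strand, Azgp1), chr19:43986521-43986770 (minus, Cpn1), chr4:148500463-148500712 (minus, Angptl7) and chr13:4150647-4150896 (minus, Akr1c18).
Azgp1: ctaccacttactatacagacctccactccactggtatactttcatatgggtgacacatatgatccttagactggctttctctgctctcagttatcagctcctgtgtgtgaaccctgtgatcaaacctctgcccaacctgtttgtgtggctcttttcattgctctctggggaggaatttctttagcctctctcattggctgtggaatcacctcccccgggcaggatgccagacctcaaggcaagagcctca
Cpn1: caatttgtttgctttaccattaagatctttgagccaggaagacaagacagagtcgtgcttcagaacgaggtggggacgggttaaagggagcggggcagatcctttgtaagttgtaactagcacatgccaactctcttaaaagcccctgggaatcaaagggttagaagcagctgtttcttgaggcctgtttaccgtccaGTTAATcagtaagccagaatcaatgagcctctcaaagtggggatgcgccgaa
Angptl7: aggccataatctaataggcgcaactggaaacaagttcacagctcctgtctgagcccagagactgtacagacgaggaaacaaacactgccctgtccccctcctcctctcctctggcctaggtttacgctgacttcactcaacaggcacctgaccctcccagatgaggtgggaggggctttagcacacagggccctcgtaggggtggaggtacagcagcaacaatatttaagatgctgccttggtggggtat
Akr1c18: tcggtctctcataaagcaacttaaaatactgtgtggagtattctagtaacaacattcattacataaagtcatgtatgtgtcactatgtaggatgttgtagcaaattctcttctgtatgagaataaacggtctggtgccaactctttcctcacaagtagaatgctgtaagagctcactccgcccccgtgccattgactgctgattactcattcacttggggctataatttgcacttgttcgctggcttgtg
Cpn1 had 1 match to GTTAAT, and none of these windows held the other letters searched.

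Among the other leading falls, Cyp2c23, the main epoxygenase of arachidonic acid in rodent kidney, measured 7.66, 7.82, 7.51 and 7.49 in wild type and 5.89, 5.64, 5.04 and 5.30 in the mutants (log2 fold change -2.16, adjusted p = 6.77e-06). Etnppl, which splits phosphoethanolamine, fell by 1.88 (adjusted p = 4.86e-08), and the transcripts 2610507I01Rik and 3110045C21Rik fell by 2.09 and 1.72. Ces1g, a carboxylesterase of lipid metabolism, fell by 1.66 (adjusted p = 0.00048), Acox2, the peroxisomal oxidase of branched fatty acids and bile acid precursors, by 1.45, and the phosphatase gene Dusp23 by 1.29. Pttg1, securin, which restrains separase and so delays the separation of sister chromatids, measured 6.72, 6.72, 6.68 and 6.69 in wild type and 4.41, 4.85, 5.72 and 5.69 in the mutants (log2 fold change -1.53, adjusted p = 9.9e-05). The mutant arrays fell into their 2 description numbers, both below wild type. The replacement histone gene H2az1 fell by 1.31, from 5.05 ± 0.34 to 3.73 ± 0.22 (mean ± SD, n = 4), close to the background level of 3.72, which is the highest lower quartile of an array. Cyp4a14 (-1.54), Hsd3b3 (-1.26) and 2610035D17Rik (-1.31) completed the list of 14. These falls and the leading rises were chosen among called genes whose groups do not overlap and whose higher group is at or above background. Hspa1b, given below, was called and fell further than most of the 14, but its groups overlap. The Cyp4a14 call was lost with 1 value per number (adjusted p = 0.122). That of 2610035D17Rik was lost on leaving out the third or the fourth wild-type array or Pbrm1 mutant replicate 1 (adjusted p up to 0.202 over all settings).

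The leading rises also included a pair of neighbouring aldehyde dehydrogenase genes. Aldh1a1, which oxidizes retinal to retinoic acid, measured 6.70, 6.99, 6.56 and 6.92 in wild type and 9.11, 9.06, 8.74 and 8.69 in the mutants (log2 fold change 2.11, adjusted p = 4.86e-08). Aldh1a7, its close relative, measured 6.36, 6.64, 5.47 and 5.24 in wild type and 8.46, 8.01, 8.12 and 8.19 in the mutants (log2 fold change 2.27, adjusted p = 2e-06). The 2 genes have similar sequences, and probes could cross-hybridize. Neither gene's groups overlapped, although wild-type replicates 1 and 2 stood above 3 and 4 for Aldh1a7.

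Col6a6, a chain of type VI collagen, measured 5.65, 5.56, 5.99 and 5.96 in wild type and 7.77, 7.88, 8.03 and 8.03 in the mutants (log2 fold change 2.14, interval 1.93 to 2.35, adjusted p = 4.26e-11). Every mutant array was at least 1 log2 unit above the wild-type range. The lysophospholipase D gene Gdpd3 rose by 1.80 (adjusted p = 3.44e-08), the peroxiredoxin-like Prxl2b by 1.64 (adjusted p = 4.5e-09), the sulfatase Arsj by 1.59, the neuropeptide Y receptor gene Npy6r by 1.71, Eddm3b by 2.36 and 9030025P20Rik by 1.83. Of the rest, 3 genes were below background in wild type and are given as levels: the glucuronosyltransferase Ugt2a3 went from 3.56 ± 0.18 to 5.43 ± 0.17 (adjusted p = 3.5e-07), Csta2 from 3.20 ± 0.34 to 4.84 ± 0.61 (adjusted p = 0.00118) and the antibody segment Igkv9-120 from 3.64 ± 0.64 to 5.94 ± 0.44 (adjusted p = 0.00211, and 0.0591 without wild-type replicates 1 and 2).

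**Figure D2:**
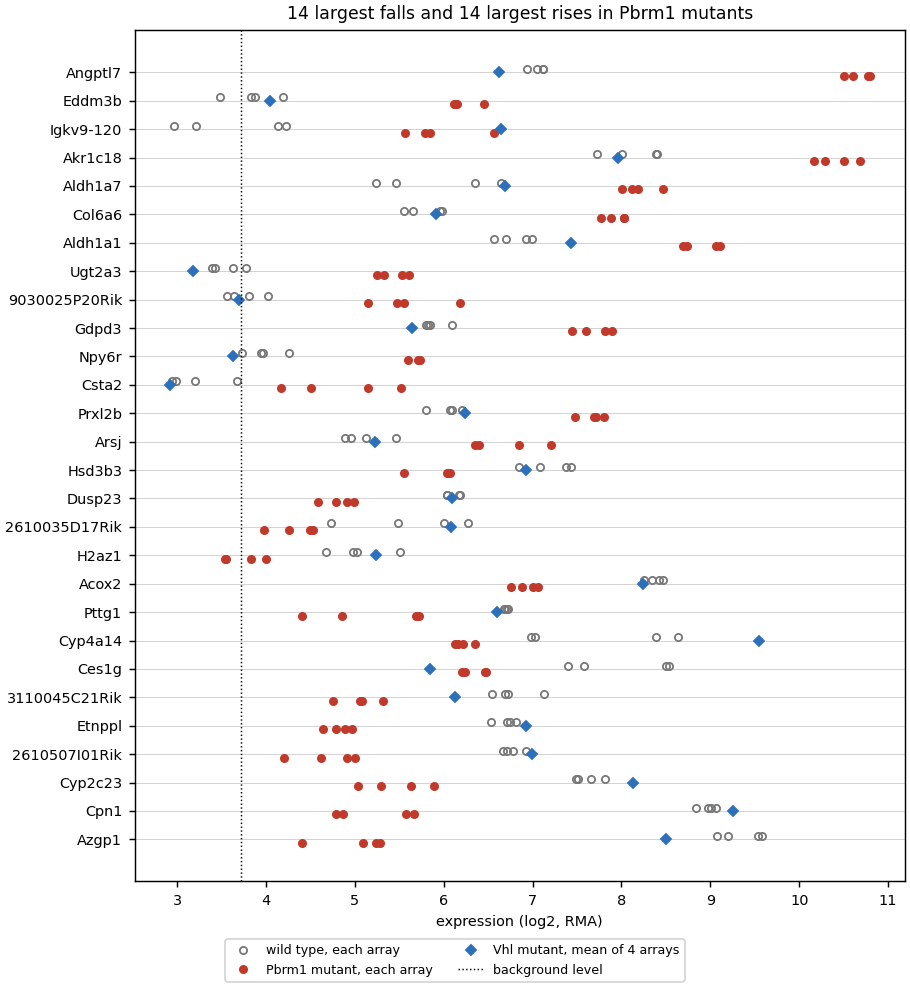
Log2 expression (x axis) of the 14 largest falls and 14 largest rises (rows) among called genes whose groups do not overlap. The higher group of each also had to be at or above background. Open circles are the 4 wild-type arrays, filled circles the 4 Pbrm1 mutant arrays and diamonds the Vhl mutant mean. A dotted line marks the background level of 3.72. Filled and open circles are separate in every row because the genes were chosen for this. The diamond for Azgp1 stands below the wild-type arrays but nearer to them than to the Pbrm1 mutants, and that for Ces1g beside the Pbrm1 mutants.

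Of these 28 genes, 26 kept their call with 1 value per description number, and 24 kept it in every alternative run. Vhl mutants have the same mixed background by label. Against them Azgp1 was lower by 3.50 (adjusted p = 1.24e-10) and Cpn1 by 4.03 (adjusted p = 1.73e-11). Cyp2c23 was lower by 2.66 (adjusted p = 1.72e-07). Azgp1 was itself lower in Vhl mutants than in wild type, by 0.84 (limma, adjusted p = 0.00927). Angptl7 was higher than in Vhl mutants by 4.05 (adjusted p = 1.38e-10), Col6a6 by 2.02 (adjusted p = 1.24e-10), Akr1c18 by 2.45 (adjusted p = 1.49e-05) and Aldh1a1 by 1.47 (adjusted p = 3.14e-06). Ces1g and Igkv9-120 were not called between the 2 mutant groups: Ces1g differed by 0.50 (adjusted p = 0.307) and Igkv9-120 by -0.70 (adjusted p = 0.4), and both had Vhl mutant means, 5.85 and 6.64, on the Pbrm1 mutant side of wild type.

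Double mutants, which carry floxed Pbrm1 and Ksp-Cre as well, did not show the single-mutant levels for all of these genes. Azgp1 measured 8.26 ± 0.22 in double mutants (mean ± SD of 4 arrays, of which 3 share a number) against 5.0 ± 0.41 in Pbrm1 mutants and 9.35 ± 0.25 in wild type. Akr1c18 measured 8.15 ± 0.91 against 10.41 ± 0.23 and 8.13 ± 0.33, and Aldh1a1 7.27 ± 0.40 against 8.90 ± 0.22 and 6.79 ± 0.20, in the same order. Angptl7 (10.08 ± 0.64), Gdpd3 (7.80 ± 0.19), Prxl2b (7.72 ± 0.15) and 2610507I01Rik (4.76 ± 0.15) measured in double mutants close to their Pbrm1 mutant means of 10.67, 7.69, 7.68 and 4.68. The difference between single and double mutants was not tested here.

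Some genes known to vary between inbred strains also differed. In a list of 28 such genes, 20 were measured and 14 were above background. Of the 20, 4 were called higher and 1 lower (median 0.02). These 5 of 20 were a larger share than the 4.04% called over all genes. With 1 value per description number 4 members were called, and with a 1.5-fold minimum 3. Wdfy1, an endosomal adaptor, measured 6.66, 6.70, 6.46 and 6.65 in wild type and 7.55, 7.67, 7.52 and 7.49 in the mutants (log2 fold change 0.94, adjusted p = 1.76e-07), and was higher than in Vhl mutants by 0.94 (adjusted p = 7.67e-08). Nnt, a mitochondrial proton-pumping enzyme whose gene is truncated in C57BL/6J mice, rose by 0.32 (adjusted p = 0.00457) and was higher than in Vhl mutants by 0.42 (adjusted p = 1.34e-04). The interferon-induced Gbp2b read 3.40, 3.32, 3.40 and 3.44 in wild type, below background, and 5.02, 4.0, 5.03 and 5.22 in the mutants. Ide, the insulin-degrading enzyme, fell by 0.42 (adjusted p = 8.79e-05), and differed by 0.12 from Vhl mutants (adjusted p = 0.234). The share of the strain difference in the other results was not tested.

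Among genes for secreted plasma-type proteins, 5 of 46 measured fell and 0 rose (10.9% called, against 4.04% of all genes, median 0.00). Besides Azgp1 and Cpn1 these were Cfi, the complement regulator factor I (log2 fold change -1.11, adjusted p = 0.00285), Pros1, protein S of the coagulation system (-0.58), and Apob, the structural protein of lipoproteins (-0.39). Cfi measured 5.68, 5.68, 5.23 and 5.42 in wild type and 4.52, 4.71, 4.20 and 4.14 in the mutants, with no overlap. Among 20 renin-angiotensin and kallikrein genes 1 rose and 3 fell (20.0% called). Enpep, aminopeptidase A, which converts angiotensin II to angiotensin III on the brush border, rose from 9.97, 9.996, 10.03 and 10.07 to 10.76, 10.76, 10.79 and 10.80. The mutant arrays spanned under 0.1 log2 units, well apart from wild type (log2 fold change 0.76, interval 0.64 to 0.88, adjusted p = 8.02e-08). Agt, angiotensinogen, fell by 0.39 (adjusted p = 0.0147, and 0.131 with 1 value per number) and the kininogen Kng2 by 0.37 (adjusted p = 0.00643); Cpn1 was the third.

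Of 55 amino acid catabolism genes, 10 rose and 2 fell (21.8% called, median 0.07), and 4 were called with 1 value per description number. With a 1.5-fold minimum 2 were called, Hao2 and Etnppl, which changed in opposite directions. The per-array median of the list, relative to wild type, lay between 0.05 and 0.06 in all 4 mutant arrays and between -0.02 and 0.02 in wild type. Hao2, a peroxisomal hydroxyacid oxidase, measured 9.44, 9.40, 9.45 and 9.34 in wild type and 10.79, 10.68, 10.57 and 10.71 in the mutants (log2 fold change 1.28, adjusted p = 9.92e-08). Gatm (0.49, adjusted p = 0.00645) and Gamt (0.42, adjusted p = 0.0186), which catalyse the successive steps of creatine synthesis, both rose, as did the D-amino acid oxidase Dao (0.34, adjusted p = 3.2e-04) and the glycine pathway genes Dmgdh (0.45), Shmt1 (0.25) and Shmt2 (0.29). Bckdhb, Aadat and Glud1 rose by 0.38, 0.32 and 0.31. Ivd, of leucine breakdown, fell by 0.39 (adjusted p = 1.2e-04), and Etnppl was the other fall. Without Pbrm1 mutant replicates 3 and 4 the called members numbered 5, and without wild-type replicates 3 and 4 they numbered 7.

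Sterol synthesis genes split. Hmgcs1, which makes the precursor of mevalonate, measured 11.25, 11.25, 11.31 and 11.27 in wild type and 10.20, 10.25, 10.24 and 10.22 in the mutants. Its groups were more than 10 times farther apart than the spread within either (log2 fold change -1.04 ± 0.07 SE, SD 0.03 and 0.02, adjusted p = 3.08e-08). Sc5d, of the last steps of cholesterol synthesis, fell from 8.16 ± 0.05 to 7.28 ± 0.12 (adjusted p = 2.45e-06), whereas Cyp51, an earlier step, rose by 0.41 (adjusted p = 0.007, and 0.0805 with 1 value per number). These were the called members of 19 measured, and the list median was -0.05. Against Vhl mutants Hmgcs1 was lower by 1.03 (adjusted p = 1.56e-08) and Sc5d by 0.82 (adjusted p = 2.37e-06), while Cyp51 differed by 0.11 (adjusted p = 0.558). In double mutants Hmgcs1 measured 11.01 ± 0.19 and Sc5d 7.33 ± 0.14.

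In fatty acid oxidation, 1 gene of 34 rose and 4 fell (14.7% called, against 4.04% of all genes, median -0.01). Eci1, an enoyl-CoA isomerase, rose by 0.63 (adjusted p = 4.81e-04), and the carnitine carrier Slc25a20 fell by 0.50 (adjusted p = 3.71e-04); Acox2, Cyp4a14 and Decr2 were the other falls. Of 29 genes of fatty acid and triglyceride synthesis, 3 rose and 0 fell: Scd1, the stearoyl-CoA desaturase (0.70, adjusted p = 0.0253), the carbohydrate-response factor Mlxipl (0.35) and Elovl5 (0.23). All 3 calls were lost with 1 value per description number, and 1 of the 3 remained called without Pbrm1 mutant replicate 3 or replicate 4. Glycolysis (1 up, 1 down of 18), the TCA cycle (1 up, 2 down of 20), the respiratory chain (2 up, 2 down of 30) and gluconeogenesis (1 up, 1 down of 12) held small changes in both directions, from -0.38 for Pck2 to 0.48 for G6pc. Single arrays set some of these counts: for the TCA cycle 0 genes were called without wild-type replicate 1 or 2 or Pbrm1 mutant replicate 2 or 3, and 1 without wild-type replicate 3 or Pbrm1 mutant replicate 1 or 4. For the respiratory chain 1 was called without wild-type replicate 1 or 2 or Pbrm1 mutant replicate 2 or 4, and 2 without wild-type replicate 4 or Pbrm1 mutant replicate 3. For gluconeogenesis 0 was called without wild-type replicate 1 or Pbrm1 mutant replicate 3, and 1 without wild-type replicate 2 or 4 or Pbrm1 mutant replicate 2 or 4. Of 10 mitochondrially encoded genes, 3 were higher: COX3 by 0.32 (adjusted p = 0.00414), ND4L by 0.32 and ND1 by 0.21; between Pbrm1 and Vhl mutants COX3 differed by 0.13 (adjusted p = 0.275).

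Steroid enzymes changed in both directions, 3 up and 2 down of 25 measured (20.0% called, median 0.14). Hsd3b2 rose from 9.84 ± 0.12 to 10.54 ± 0.05 (adjusted p = 8e-06), while Hsd3b3, its neighbour in the same cluster of 3-beta-hydroxysteroid dehydrogenases, fell from 7.19 ± 0.27 to 5.93 ± 0.25 (adjusted p = 0.00227). The members of this cluster are near-identical, so that signal may be shared between probe sets. Hsd11b1, which regenerates active glucocorticoid, measured 6.98, 6.94, 6.77 and 6.60 in wild type and 5.97, 5.89, 6.02 and 6.00 in the mutants (log2 fold change -0.85, adjusted p = 2.64e-05). Its arrays did not overlap, and the gene differed from Vhl mutants by -0.24 (adjusted p = 0.204). Hsd17b11 rose by 0.64 (adjusted p = 0.00232). Akr1c18, given above, was the remaining rise.

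Several of these are sex-dependent kidney genes, and 5 of 26 genes of that list rose while 1 fell (23.1% called, median 0.12). Cyp4a12a, the androgen-induced enzyme that makes 20-HETE in male mice, measured 6.81, 6.85, 6.56 and 5.94 in wild type and 7.63, 7.84, 7.91 and 7.89 in the mutants (log2 fold change 1.28, adjusted p = 0.00661). Its mutant arrays were all above wild type, and the call was lost without replicates 3 and 4 of either group. Kap, the androgen-regulated proximal tubule protein, rose by 0.22 (adjusted p = 0.0047, and 0.103 with 1 value per number) and Cyp2e1 by 0.18. Without Pbrm1 mutant replicates 3 and 4 the called members numbered 2. Of 98 cytochrome P450 genes, 6 rose and 2 fell (8.16% called, against 4.04% of all genes). Cyp2d12 rose from 8.67 ± 0.10 to 9.85 ± 0.17 (adjusted p = 3.48e-04), and Cyp2c23 and Cyp4a14 were the falls. Of the 11 UDP-glucuronosyltransferases 2 rose, Ugt2a3 and its neighbour Ugt2b37 (0.65, adjusted p = 0.00956, and 0.0725 with 1 value per number).

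Solute carriers, the largest transporter family with 361 genes measured, had 12 rises and 12 falls (6.65% called against 4.04% of all genes, median 0.00). Slc10a2, the sodium-dependent bile acid transporter ASBT, measured 7.89, 8.0, 7.99 and 7.68 in wild type and 9.28, 9.27, 9.42 and 9.54 in the mutants. Every mutant array lay above every wild-type array by more than 1 log2 unit (log2 fold change 1.49, interval 1.30 to 1.67, adjusted p = 1.34e-09). Slc26a1, the sulfate and oxalate exchanger, rose by 0.68 (adjusted p = 8.04e-06). Slc16a14, a monocarboxylate transporter relative, measured 9.36, 9.17, 8.21 and 8.09 in wild type and 9.83, 9.81, 9.95 and 10.06 in the mutants; wild-type replicates 1 and 2 lay close to the mutants, and the call (adjusted p = 0.00615) was lost with 1 value per number (adjusted p = 0.113). Falls included the neutral amino acid transporter Slc6a17 (-1.0, adjusted p = 5.11e-05) and the lysosomal transporter Slc46a3 (-0.87, adjusted p = 9.55e-06). Slc46a3 differed by -0.23 from Vhl mutants (adjusted p = 0.176). Of 48 ABC transporters, 1 rose, Abca3 (0.59, adjusted p = 3.41e-05), and 4 fell, among them the organic anion exporter Abcc2 (-0.41, adjusted p = 9.79e-04); 3 of the 5 were called without wild-type replicate 1 or 4 or Pbrm1 mutant replicate 1 or 3.

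Iron and heme genes changed in both directions, 1 up and 2 down of 24 measured (12.5% called, median -0.05). Alas1, which starts heme synthesis, measured 10.76, 10.66, 10.31 and 10.4 in wild type and 9.69, 9.69, 9.33 and 9.37 in the mutants. In both groups replicates 1 and 2 were above 3 and 4, and all mutant arrays were lower than all wild-type arrays (log2 fold change -1.01, adjusted p = 1.42e-04). Between Pbrm1 and Vhl mutants Alas1 differed by -0.42 (adjusted p = 0.0742). Slc40a1, ferroportin, the iron exporter, fell by 0.71 (adjusted p = 5.17e-05), while Alad, the next enzyme of heme synthesis, rose by 0.46 (adjusted p = 0.00107). Outside the list, the mitochondrial iron carriers Slc25a37 and Slc25a28, both among the falling solute carriers, fell by 0.64 (adjusted p = 1.71e-05) and 0.38 (adjusted p = 0.00549).

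Of 27 glutathione and NRF2 target genes, 1 rose and 5 fell (22.2% called, median -0.08), and 3 were called with 1 value per number. Nfe2l2 itself, which encodes the oxidative stress factor NRF2, measured 9.34, 9.30, 9.29 and 9.18 in wild type and between 8.88 and 8.90 in the mutants (log2 fold change -0.39, adjusted p = 2.51e-04). Osgin1, one of its targets, fell from 8.98 ± 0.22 to 8.09 ± 0.25 (adjusted p = 3.59e-04), Gsta4 by 0.55 and Abcc2 as above. Gsr, glutathione reductase, rose by 0.55 (adjusted p = 3.76e-05). Gsto1, outside the list and among 18 glutathione S-transferases of which 2 fell, was lower by 0.74 (adjusted p = 5.17e-05). It was the member left when the other call of that family, Gsta4, was lost, as happened without wild-type replicate 3 or 4 or Pbrm1 mutant replicate 2, 3 or 4.

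**Figure D3:**
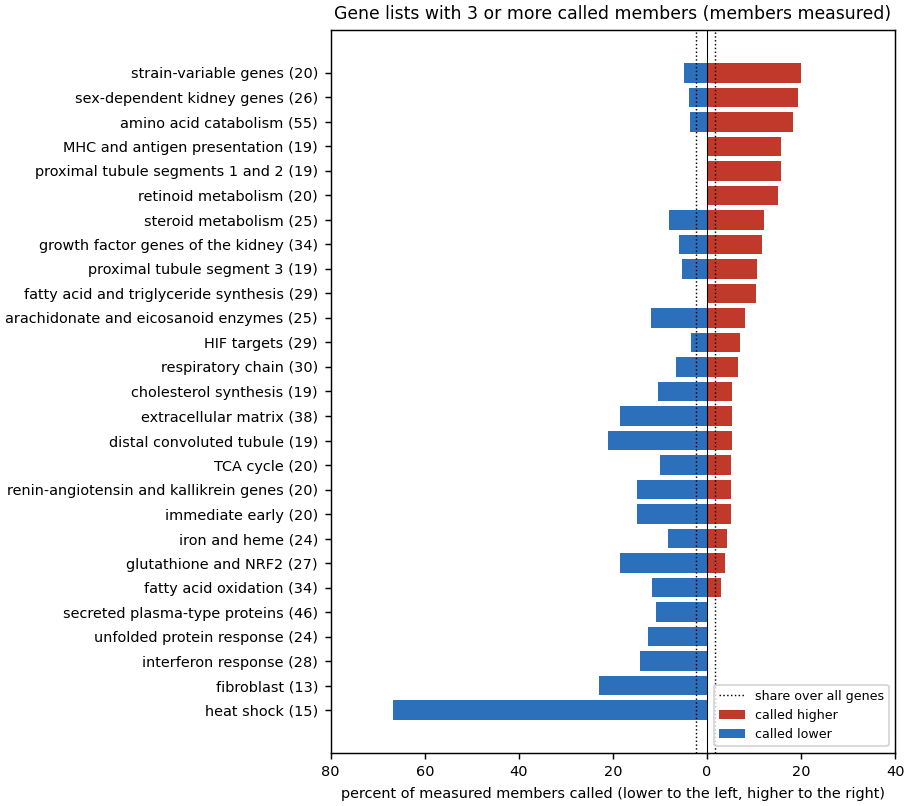
For each gene list with 3 or more called members, bars give the percent of measured members called lower (left, blue) and higher (right, red) in Pbrm1 mutants, with the number measured in brackets and dotted lines at the shares over all genes, 2.45% and 1.59%. The heat shock bar, 10 of 15 lower, is the longest; it shrank to 0 without wild-type replicate 1 and to 1 without Pbrm1 mutant replicate 4.

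Of the called nephron segment markers, Aqp4 and Tmem45b changed more than 1.5-fold. The called share was 15.8% in each proximal tubule list and 10.5% in each of the intercalated and principal cell lists. It was 14.3% for thin limb, 7.14% for thick ascending limb and 0% for podocytes, against 4.04% of all genes. Of the proximal tubule lists, 3 of 19 markers of segments 1 and 2 rose, the organic anion transporter Slc22a8 (0.28), the dicarboxylate transporter Slc13a3 (0.26) and Gatm; in segment 3, Kap and Aadat rose and Agt fell, also of 19. All calls of both lists were lost with 1 value per number, and 1 call of segment 3 was left without Pbrm1 mutant replicate 3. In the distal convoluted tubule, 4 of 19 fell and 1 rose (26.3% called, median -0.12). Slc12a3, the thiazide-sensitive sodium chloride cotransporter, measured 12.11, 12.06, 12.15 and 12.20 in wild type and 11.83, 11.75, 11.75 and 11.79 in the mutants. The groups were separate by over 0.2 log2 units (log2 fold change -0.35, adjusted p = 7.3e-04, and 0.0575 with 1 value per number). Klhl3, of the ubiquitin ligase that controls this transporter's kinases, fell by 0.42 and the magnesium gene Cnnm2 by 0.30, whereas the potassium channel Kcnj10 rose by 0.44 (adjusted p = 0.00443). Called members numbered 3 without wild-type replicate 1, 3 or 4 or Pbrm1 mutant replicate 3. Of the intercalated cell list 2 of 19 fell, the ammonia channel Rhcg (-0.41) and the proton pump subunit Atp6v1b1 (-0.33), and 1 was called on leaving out wild-type replicate 1 or 3 or Pbrm1 mutant replicate 2 or 3. Of principal and connecting tubule genes 2 of 19 rose, the water channel Aqp4 (1.06, adjusted p = 0.00211, and 0.0698 with 1 value per number) and Tmem45b (0.63, adjusted p = 3.48e-04). None of 11 podocyte genes was called (limma; Nphs1 had the largest change, -0.18, adjusted p = 0.32). Thick ascending limb and thin limb lists had 1 fall each, Ppp1r1a (-0.37) of 14 and Cryab (-0.55) of 7. The former count was 0 without wild-type replicate 1 or 4 or Pbrm1 mutant replicate 3 or 4, and 2 without Pbrm1 mutant replicate 2. The latter was 0 without any single wild-type array or Pbrm1 mutant replicate 1 or 4, and 2 without Pbrm1 mutant replicate 2.

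Of 38 extracellular matrix genes, 7 fell and 2 rose (23.7% called, median -0.14). The 9 calls became 4 with 1 value per number, 5 without wild-type replicates 1 and 2 or 3 and 4, 3 without Pbrm1 mutant replicates 1 and 2, and 2 without Pbrm1 mutant replicates 3 and 4. Fn1, fibronectin, measured 7.62, 7.79, 7.89 and 7.96 in wild type and 6.91, 6.75, 7.27 and 6.86 in the mutants (log2 fold change -0.87, adjusted p = 1.05e-04). Pbrm1 mutant replicate 3 was the highest of its group and still below wild type. Fbln5, of elastic fibres, fell by 0.78 (adjusted p = 7.27e-04), Spon1 by 0.70, Frem1 by 0.69 and Thbs1 by 0.63. Agrn and Lama3, of the basement membrane, rose by 0.33 and 0.34. Of 44 collagens, 3 rose (Col6a6, Col20a1, Col4a3) and 2 fell: Col14a1 from 7.15 ± 0.14 to 6.33 ± 0.21 (adjusted p = 3.77e-04) and Col1a2 by 0.52. The matrix proteases Adamts5 and Adamts1 fell by 0.74 and 0.63, while 0 of 16 integrins was called at the same threshold (limma).

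Markers of stromal and vascular cells are given beside the matrix genes. In the fibroblast list 3 of 13 fell (C7, Col1a2 and Gas1, median -0.40). Its per-array medians were -0.45, -0.51, 0.01 and -0.37 in Pbrm1 mutant replicates 1 to 4 and -0.07 to 0.03 in wild type, and its log2 summed level ranged from 9.68 to 10.30 in the mutants and from 10.15 to 10.35 in wild type. Called members numbered 5 without Pbrm1 mutant replicate 3 and 1 without any other single mutant array or without wild-type replicate 2 or 4. In the endothelial list 2 of 19 fell, the vascular growth factor receptors Kdr (-0.33) and Flt1 (-0.25). Of the smooth muscle, pericyte and renin cell list 0 of 12 was called in limma. Of the 2 endothelial calls 0 was left without wild-type replicate 4 or Pbrm1 mutant replicate 4, and 1 without wild-type replicate 2 or 3 or Pbrm1 mutant replicate 1 or 2. The part of fewer such cells in the matrix result was not tested. The adipose list stood out in Pbrm1 mutant replicate 3, with a median of 0.68 against -0.06 to 0.00 in the other mutants and -0.17 to 0.16 in wild type; its summed level was 11.60 there, against 10.64 to 10.75 and 10.17 to 10.65, and the defining marker Adipoq was near background on all arrays, from 3.46 to 4.39. Only Pnpla2, a triglyceride lipase, was called of its 14 members (0.47, adjusted p = 3.72e-04). With the adipose median as a covariate 689 genes were called.

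Called interferon response genes were all lower and called antigen presentation genes all higher. Of 28 interferon genes, 4 fell (Oasl2 by 0.57, Ifit1 by 0.54, Usp18 by 0.54, Rtp4 by 0.51) and 0 rose (14.3% called, median -0.20). The list's per-array median was -0.29 to -0.17 in the mutants and -0.13 to 0.15 in wild type, and all 4 calls were lost without wild-type replicates 1 and 2. Of 19 antigen presentation genes, 3 rose: H2-Q10 (1.30, adjusted p = 2.31e-04), a class I gene that differs between mouse strains, H2-DMa (0.42) and H2-Ab1 (0.51). Macrophage markers had 1 rise of 19, the fractalkine receptor Cx3cr1 (0.37, adjusted p = 0.0218, and 0.194 with 1 value per number), and B and plasma cell markers 1 of 11, Jchain (0.83, adjusted p = 0.0389, and 0.0725 with 1 value per number). The macrophage count was 0 on leaving out wild-type replicate 2 or Pbrm1 mutant replicate 1 or 2, and the B and plasma cell count was 0 on leaving out any single array except wild-type replicate 4. The called share was 5.26% for macrophage and 9.09% for B and plasma cell markers, against 4.04% of all genes. The T and NK cell, neutrophil and urothelium lists had 0 called members in limma at this threshold.

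Of 29 targets of hypoxia-inducible factors, 2 rose and 1 fell (10.3% called, median -0.05). The list's log2 summed level was 13.89 to 13.97 in the mutants and 13.75 to 13.81 in wild type, with no overlap, while its per-array medians overlapped (-0.13 to 0.03 against 0.00 to 0.04). Car9, carbonic anhydrase 9, measured 6.42, 6.64, 6.34 and 6.65 in wild type and 7.46, 7.54, 7.38 and 7.52 in the mutants, with no overlap (log2 fold change 0.96, adjusted p = 2.59e-04). It was higher than in Vhl mutants by 0.92 (adjusted p = 1.48e-04), and double mutants measured 8.22 ± 0.38. Ndrg1 rose by 0.46 (adjusted p = 0.0308) and Pfkfb3, a glycolytic regulator, fell by 0.47; Car9 alone was called with 1 value per number, and 1 member was called without any of wild-type replicates 1, 2 and 4 or Pbrm1 mutant replicates 1, 3 and 4. The tubular injury list had 1 fall of 21, Anxa1 (-0.40), which is 4.76% and near the 4.04% of all genes. Its count was 0 on leaving out wild-type replicate 2 or 3 or Pbrm1 mutant replicate 1 or 2. Growth factor genes showed 4 rises and 2 falls of 34: the receptor Erbb3 rose by 0.60, and Fgfr2 and Igfbp3 fell by 0.63 and 0.52.

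No partner subunit of the complexes was called. Over all genes 4.04% were called, so that 0 in lists of 14 to 35 genes says little about them. Of 26 SWI/SNF subunit genes 0 was called in limma, with changes from -0.40 for Dpf3 (adjusted p = 0.12) to 0.35 for Bcl7c (adjusted p = 0.086); the PBAF-specific Arid2, Brd7 and Phf10 changed by -0.02, -0.04 and -0.09. Among other chromatin genes mutated in kidney cancer 0 of 14 was called, among p53 targets 0 of 22, among TGF-beta and Wnt targets 0 of 27 and among nuclear receptors 0 of 35. Of 33 cell cycle genes 2 fell, the D-type cyclins Ccnd2 (-0.54) and Ccnd3 (-0.32), with 1 called on leaving out wild-type replicate 1 or Pbrm1 mutant replicate 3.

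Heat shock genes had the highest called share of any list, 10 of 15 lower and 0 higher (66.7%, median -0.46), and the count depended on single arrays of both groups. Hspa1b, the inducible HSP70, measured 9.85, 10.01, 7.45 and 7.45 in wild type and 7.82, 7.73, 5.17 and 5.46 in the mutants. Wild-type replicates 1 and 2 were far above all other arrays, and wild-type replicates 3 and 4 lay within the range of the mutants (log2 fold change -2.14, adjusted p = 0.0416, and 0.249 with 1 value per number). Hspa1a, its neighbour and near-identical copy, measured 9.80, 10.02, 7.51 and 7.38 and then 7.43, 7.38, 6.27 and 5.92. The list's per-array medians were 0.17, 0.20, -0.11 and -0.14 in wild type and -0.40 to -0.37 in the mutants, below all 4 wild-type arrays. Leaving out wild-type replicate 1 took the count of 10 to 0, and leaving out wild-type replicate 2 or Pbrm1 mutant replicate 4 took it to 1. It was 3 without Pbrm1 mutant replicate 3, 5 without Pbrm1 mutant replicate 2, 0 without Pbrm1 mutant replicates 3 and 4, and 0 with 1 value per number. Between Pbrm1 and Vhl mutants Hspa1b differed by -0.09 (adjusted p = 0.962) and Hsph1 by 0.41 (adjusted p = 0.134).

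Counts of unfolded protein response and immediate early genes also depended on single arrays. Of 24 unfolded protein response genes 3 fell (Hyou1 by 0.61, Hspa5 by 0.46, Atf6 by 0.27); wild-type replicates 1 and 2 had list medians of 0.14 and 0.15, replicates 3 and 4 of -0.11 and -0.17, and the mutants of -0.27 to -0.23. The count was 15 without wild-type replicates 3 and 4 and 0 without wild-type replicates 1 and 2. Single arrays also moved it: 1 was called without wild-type replicate 1 or Pbrm1 mutant replicate 1 or 3, 5 without wild-type replicate 3 and 6 without wild-type replicate 4. Of 20 immediate early genes 3 fell and 1 rose. Jun measured 8.48, 8.48, 7.74 and 7.69 in wild type and between 7.32 and 7.63 in the mutants. The called members numbered 1 without wild-type replicate 1 or replicate 2, and 2 without Pbrm1 mutant replicate 3 or 4.

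The description numbers inside a group were also set against each other. Only genes whose mean in the group was at or above background were counted. Among these, arrays of the 2 numbers did not overlap for 6809 genes in the Pbrm1 mutants and 7313 in wild type. For scale, 16431 genes had a mean over both groups at or above background, a different filter from the per-group one. With 2 arrays against 2, non-overlap is frequent even where the numbers do not differ. The counts of 6809 and 7313 alone therefore show no difference between numbers. No test of an excess was made, and the correlation within a number estimated over all genes was 0.0838. Under the same filter, 22 genes differed at least 2-fold with no overlap between replicates 3 and 4 and replicates 1 and 2 of the Pbrm1 mutants. In wild type 32 did. The genes named next were chosen for the size of this difference or after their values were seen. Akr1e1, an aldo-keto reductase, measured 7.73 and 7.82 in Pbrm1 mutant replicates 1 and 2 and 4.61 and 4.82 in replicates 3 and 4, against 7.46 to 7.80 in wild type. Havcr1, the injury marker KIM-1, was high in Pbrm1 mutant replicates 1 and 2 (7.02 and 7.37) and at wild-type level in replicates 3 and 4 (4.77 and 4.67; wild type 3.71 to 4.8), and was not called (adjusted p = 0.0594). Cyp24a1, which inactivates vitamin D, split in both groups, with 8.18 and 8.31 against 9.53 and 9.47 in wild type and 7.88 and 7.75 against 10.13 and 9.97 in the mutants.

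Circadian clock genes split by number among the mutants too. Of 18 measured, 0 was called in limma, and the list median was -0.24. The count was 5 when only Pbrm1 mutant and wild-type arrays were fitted and 2 without Pbrm1 mutant replicates 1 and 2. It was 1 without Pbrm1 mutant replicate 2 or without Pbrm1 mutant replicates 3 and 4, and 0 in the other alternatives. The list's per-array median was -0.08 and -0.08 in Pbrm1 mutant replicates 1 and 2, -0.38 and -0.45 in replicates 3 and 4, and -0.04 to 0.02 in wild type. Npas2, an activator of the clock, measured 6.35 and 6.31 in Pbrm1 mutant replicates 1 and 2 and 7.38 and 7.47 in replicates 3 and 4, against 5.41 to 5.69 in wild type (adjusted p = 0.122). Ciart, a clock repressor, measured 6.83 and 6.98, then 5.32 and 5.49, against 6.78 to 7.37 (adjusted p = 0.28). The labels used here give no time of day for the sampling.

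**Figure D4:**
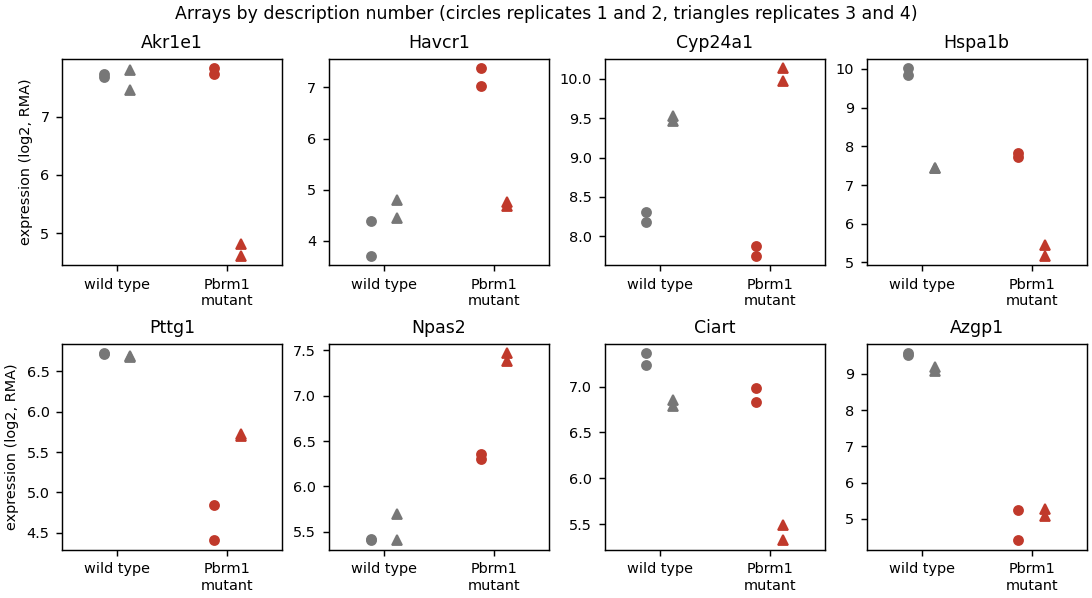
Log2 expression (y axis) of 8 genes on the 4 wild-type arrays (grey) and 4 Pbrm1 mutant arrays (red), with circles for replicates 1 and 2 and triangles for replicates 3 and 4, which have separate description numbers. Circles and triangles of the mutants stand apart for Akr1e1, Havcr1, Cyp24a1, Hspa1b, Pttg1, Npas2 and Ciart, whereas for Azgp1 both lie between 4.40 and 5.28.

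Called genes often lay next to each other. Of 886 called genes placed in RefSeq gene order, 143 (16.1%) had a called gene directly beside them, against 7.38% of the genes not called; for genes called with at least 1.5-fold change the shares were 8.66% and 1.99%. The share of called genes ranged, among autosomes and the X chromosome, from 2.0% on the X chromosome to 6.11% on chromosome 19, with 5.82% on chromosome 9. In windows of 21 successive genes the median number called was 1, and 147 of 21561 windows held 6 or more. The densest windows, which were chosen by their counts, contained several of the leading genes.

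On chromosome 4 a window ending at Angptl7 held 10 called genes, 5 higher and 5 lower. Fbxo44, a ubiquitin ligase subunit, measured 7.23, 7.56, 7.25 and 7.13 in wild type and 6.07, 5.75, 6.30 and 6.31 in the mutants (log2 fold change -1.19, adjusted p = 5.26e-06). Clcn6, an endosomal chloride-proton exchanger, rose by 0.94 (adjusted p = 3.97e-06), and was higher than in Vhl mutants by 1.18 (adjusted p = 6.65e-08). Agtrap, which binds the angiotensin II receptor, rose by 0.45, while Fv1, a retrovirus restriction gene known to vary between mouse strains, fell by 0.88 (adjusted p = 1.07e-04). On chromosome 9, 9 of 21 genes around Tlr9 were called: with Col6a6 and Alas1, the aminoacylase Acy1 rose by 1.09 (adjusted p = 7.8e-06) and Pcbp4 by 0.81, and Abhd14a fell by 0.71.

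Chromosome 19 held a pair of such windows. In the first, Cpn1, Cyp2c23 and Erlin1 are successive genes and all fell, Erlin1, a regulator of sterol sensing in the endoplasmic reticulum, by 1.04 (adjusted p = 7.32e-06); Abcc2, Slc25a28 and Pyroxd2 nearby also fell, and Gm10768 rose by 0.81. In the second, with Aldh1a1 and Aldh1a7, Ostf1 rose by 0.65 (adjusted p = 2.81e-06) and Gda, guanine deaminase, fell by 0.72 (adjusted p = 5.89e-04). On chromosome 3 the neighbours Cfi, Casp6, Ostc and Rpl34 of Etnppl all fell, by 0.30 to 1.11. Around Azgp1, Akr1c18, Gdpd3 and Pttg1 0 of 20 neighbours was called in limma. Around Pbrm1 itself 3 of 20 neighbours fell and 0 rose: Tnnc1 (-1.06, adjusted p = 1.93e-04), Sema3g (-0.51) and Nisch (-0.24). Against Vhl mutants Tnnc1 differed by -0.18 (adjusted p = 0.605), Nisch by -0.12 (adjusted p = 0.299) and Sema3g by -0.50 (adjusted p = 0.00106). Whether sequence carried along from another strain around these loci has a part in the runs was not tested.

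**Figure D5:**
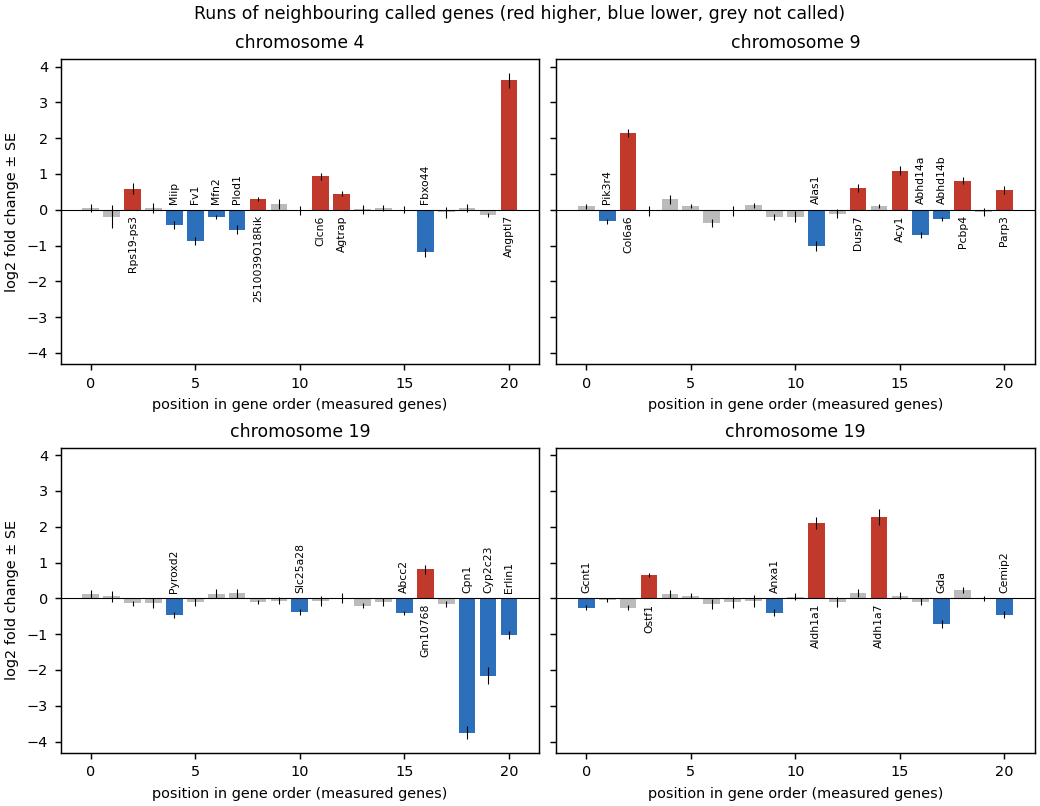
Log2 fold change (y axis, bars, ± SE) of 21 successive measured genes (x axis, gene order) in 4 of the densest windows, on chromosomes 4, 9 and 19; red bars are called higher, blue called lower and grey not called, and called genes are named. Rises and falls stand side by side in the chromosome 4 and 9 windows, whereas Cpn1, Cyp2c23 and Erlin1 form a run of falls.

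Among the smaller families, microRNA genes had 10 rises and 1 fall of 478 measured (2.30% called), of which 200 were above background. Mir375 rose from 5.53 ± 0.19 to 6.18 ± 0.15 (adjusted p = 0.0142, and 0.0702 with 1 value per number). The called members numbered 5 without wild-type replicate 1 and 7 without Pbrm1 mutant replicate 4. Zinc finger genes had 4 rises and 9 falls of 370 (3.51% called), near the 4.04% called over all genes. The microRNA share lay below that of all genes. Of keratins 0 of 49 was called in limma, of proteasome subunits 0 of 47 and of homeobox cluster genes 0 of 36. With 4.04% called over all genes, 0 in families of this size says little about them. At the edge of the threshold, Cbr2 (0.61) and Sat2 (0.29) were the last genes called, both with adjusted p = 0.0499, and 9230114K14Rik (0.31, adjusted p = 0.0503) and Zfp251 (-0.35, adjusted p = 0.051) the first that were not.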

How the data were processed

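Cortex RNA, isolated with Trizol, was turned into biotinylated cRNA for Affymetrix arrays (per the labels' protocols). The submitters' processing notes name RMA (robust multi-array averaging) and Affymetrix Expression Console 1.4 as the tools behind the deposited log2 values. The authors' table holds 41345 probe sets for 16 arrays. RMA puts all arrays on 1 distribution of probe values and pulls low values together, so that small levels and their fold changes are compressed. Probe sets with 1 gene symbol in the platform annotation (23521) were used; the 1814 with several symbols and the 16010 not listed were left out. Where a gene had more than 1 probe set (1082 genes), that of the highest mean was taken, which gave 22180 genes. The array's genome build is not given in the sources used here; RefSeq (GRCm38.p6) supplied gene order and promoter sequences only.

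All 16 arrays entered 1 linear model in limma 3.58.1 (R 4.3.3), with 4 group means, the description number as a random block (estimated correlation 0.0838) and a prior variance that follows mean expression. Called means an adjusted p (Benjamini-Hochberg over all genes) under 0.05. The median SE of a fold change was 0.12 (log2); the precision is limited by having 4 arrays a group. Same-numbered replicates of the 2 groups did not deviate together (r from -0.01 to 0.05), and the groups were treated as unpaired. A correlation over many genes does not show whether same-numbered replicates share something in a subset of genes, which was not tested. Lists (63, with 1190 of 1314 genes measured) and 27 families by symbol are described by counts and medians. Genes below 3.72, the highest lower quartile of an array, are given as levels. Named genes are the 14 largest rises and 14 largest falls whose groups do not overlap and whose higher group is above background, up to 4 called members per list, both deleted genes, the genes beside the threshold and the 5 that differ most between numbers of the Pbrm1 mutants. Other list members, the genes of chromosome windows, clock genes and tissue markers were chosen after their values were seen. The members, lists and tests were chosen with earlier results of these data known. The fit was tested on simulated data. Alternatives were no block, a block by replicate number, 1 value per description number, other normalizations, filters and weights, an adipose covariate, a 1.5-fold minimum, and leaving out arrays. Tables were made in Python 3.11.15 with pandas 2.3.3, and figures with matplotlib 3.10.9.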

Additional observations from a re-analysis of the deposited data

Results flagged for a closer look

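Among the named genes, 366 groups of 4 arrays were searched for an array that stands far from the other 3 of its group, and 21 (5.74%) had such an array, where chance gives about 1 in 20. Values are log2 levels of the lone array. In Pbrm1 mutant replicate 1 the genes were Npy6r (5.594) and Ifit1 (5.869). In Pbrm1 mutant replicate 2 the genes were Eddm3b (6.448), Gatm (11.008), Gbp2b (3.995), Dmgdh (9.248) and Zfp758 (3.041). In Pbrm1 mutant replicate 3 the genes were Hsd3b3 (5.557), Scarb1 (6.113), Adamts5 (6.164), Abca3 (10.693) and Rpl6l (8.516). In Pbrm1 mutant replicate 4 it was Zfp251 (5.763). In wild-type replicate 1 it was Col20a1 (5.276). In wild-type replicate 2 the genes were Gdpd3 (6.092) and Cx3cr1 (5.959). In wild-type replicate 3 the genes were Kap (12.746), Slc46a3 (9.12) and Rplp1 (11.076). In wild-type replicate 4 the genes were Agt (7.529) and Zfp457 (3.327). No explanation was tested for these arrays.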

How the results depend on the processing

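The 895 calls became 274 with 1 value per description number, 512 without wild-type replicates 1 and 2, 349 without Pbrm1 mutant replicates 3 and 4, and 235 with a 1.5-fold minimum; for the first 3 fewer samples entered the fit. Leaving out single arrays gave 623 to 865 calls. With the replicate block there were 1062 calls, 874 of them shared with the 895. With it, 7 of the 175 called genes named lost their call. The main fit treats the groups as unpaired. The other alternatives gave 611 (no trend) to 1120 (no random block) calls. Centring each array or quantile normalization moved the higher share from 39.3% to 45.7% or 46.3%. None of the 175 changed direction in any alternative run; 61 kept their call in all, 65 lost it without some single array, and 93 with 1 value per number. Array noise and the low signal of 32 called genes below background in the lower group limit what can be measured. Genotype, strain and Cre cannot be told apart.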
